A study of Homo sapiens with 5 samples.

Results

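The 38 genes that encode the subunits of integrins (26 genes) and laminins (12 genes) were followed through RNA-seq of TOV21G, a cell line from an ovarian clear cell carcinoma that carries an ARID1A mutation. They were taken by gene identity alone, as every annotated protein-coding integrin alpha (18), integrin beta (8), laminin alpha (5), laminin beta (4) and laminin gamma (3) gene among the 30476 genes counted. The 5 libraries were 1 of parental cells without GSK126 and 4 of EZH2 inhibitor-resistant (EIR) cells. All EIR cells descended from TOV21G cultures in which GSK126, an inhibitor of the histone methyltransferase EZH2, was raised from 5 to 10, 15 and 20 uM before single clones were picked. EIR clones 3 and 4 were each sequenced once as control cultures and once after GSK126, so each library is the only one of its kind and all EIR values rest on 2 clones. The labels do not say that any libraries were separate cultures of one kind, so the p-values below measure only the spread between these libraries.

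Integrins are cell-surface receptors made of one alpha and one beta subunit, and the pairing decides which matrix protein is bound. Laminins are secreted trimers of one alpha, one beta and one gamma chain that form the sheet of the basement membrane on which epithelial cells sit. Epithelial cells hold on to laminin mainly through the integrin subunits α3, α6, β1 and β4, to collagen through α1 or α2 with β1, and to fibronectin and vitronectin through α5 with β1 or αv with several beta subunits.

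Total counts per library ranged from 25479238 to 30764963. Of the epithelial and clear cell markers, 7 of 8 had a row in the count table, and their summed normalized read count, 22573 in the parental library, ranged from 24169 to 27917 in EIR libraries. That sum was carried by the abundant genes KRT18, KRT8 and PAX8, and less abundant genes of the list differed between the clones. The adhesion gene EPCAM was counted 398 times in the parental library, 426 and 498 times in those of clone 3, and 0 and 1 times in those of clone 4. In the same order of libraries, MUC1, a mucin, had counts of 11, 45, 71, 3 and 18, and NAPSA, a clear cell marker, had 2, 53, 50, 6 and 4. Markers of other cell types were low, with summed normalized read counts in any library of at most 49.7 for 5 leukocyte genes, 44.8 for 4 platelet genes, 129.6 for 5 fibroblast genes and 10.2 for 3 endothelial genes. Expression relative to parental cells moved with the GC content of the transcripts over the whole genome: the median log2 ratio of EIR to parental cells was 0.51 for the 1324 expressed genes below 40% GC and -0.49 for the 1463 genes at 60% GC or more. Values after a correction for GC content are therefore given where they change the call of a described subunit gene.

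Results are given for 37 of the 38 genes. Of these, 22 are described one by one below, because their mean normalized read count reached 100 (19 genes) or passed a test. The other 15 held between 0 and 104 counts in every library, and 8 of them never had more than 12 counts. Normalized read counts are counts divided by the library's size factor, and levels of different genes are compared only per kilobase of transcript. On that per-kilobase scale the most abundant subunit in parental cells was ITGB1 (27484), which pairs with most alpha subunits, followed by the laminin gamma chain LAMC1 (13483). LAMB1 (3484), ITGAV (2784), ITGA3 (1673) and LAMA1 (1255) were also high. ITGB1 also stood above LAMC1 in each of the 4 EIR libraries.

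**Figure D1:**
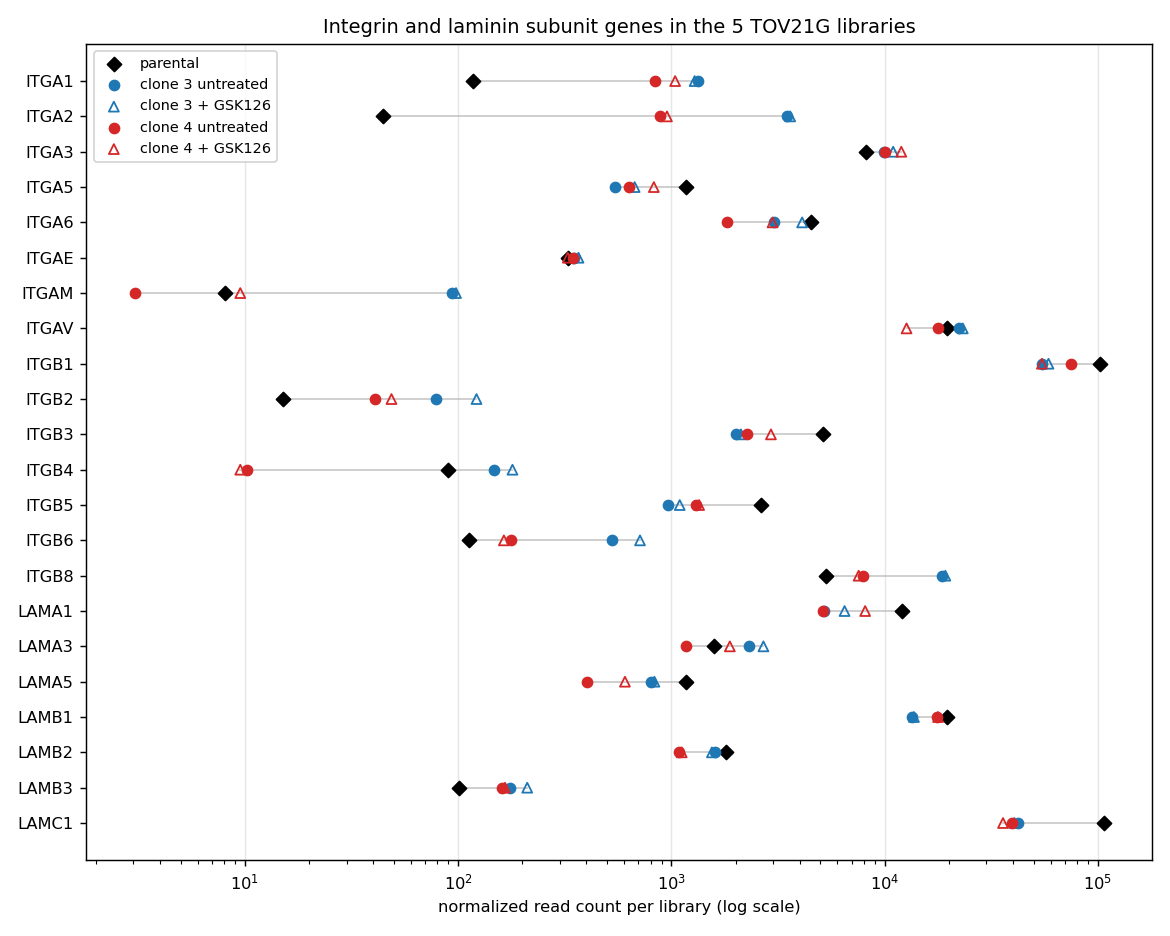
Normalized read count (log axis) of the 22 described integrin and laminin subunit genes in each of the 5 libraries, 1 point per library, with diamonds for parental cells, circles for untreated EIR cells and triangles for GSK126-treated EIR cells. ITGA2 lies at 44.3 in parental cells and between 882 and 3609 in EIR libraries, whereas LAMC1 lies at 106908 in parental cells and between 35926 and 42026 in EIR libraries.

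The first comparison asked how the 4 EIR libraries differed from the parental library. With DESeq2, 28 of the 37 genes received an adjusted p, and 9 of these (32.1%) passed an adjusted p of 0.05, against 25.5% of all 16288 genes tested. Of these 9, 3 were higher in EIR cells, where 12.4% of all genes were called higher, and 6 were lower, where 13.2% of all genes were. The median log2 fold change was -0.19 over the 28 genes and 0.00 over all genes tested. With edgeR, which called 5.73% of all genes, 5 members passed: ITGA1, ITGA2, ITGB3, ITGB5 and LAMC1. These 5 also passed in DESeq2 and in each of the other 9 settings that were fitted. Among the 19 genes whose mean normalized read count reached 100, all 4 EIR libraries lay above parental cells for 6, where 31.9% of all such genes did, and all 4 lay below for 10, where 40.6% did. The other 3 genes (ITGAE, ITGAV and LAMA3) overlapped the parental value.

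To show sequence at the start of the genes that moved in every setting, the 250 bases before a RefSeq transcription start are given. This was done for the 4 of these 5 genes that have an entry in the promoter table used. The first entry listed for a gene was taken, which need not be its main start. Coordinates of these windows are on GRCh38.p14, and all sequences read 5′ to 3′ toward the gene. Capitals mark the GC box GGGCGG, the letters bound by SP1-type factors, on either strand. 
ITGA1 (chr5:52787666-52787915, plus strand): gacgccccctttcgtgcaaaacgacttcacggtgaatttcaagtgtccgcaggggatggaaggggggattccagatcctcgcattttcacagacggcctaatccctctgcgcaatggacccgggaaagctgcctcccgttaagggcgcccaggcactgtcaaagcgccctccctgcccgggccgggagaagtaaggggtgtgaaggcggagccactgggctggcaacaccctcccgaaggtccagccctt
ITGA2 (chr5:52989102-52989351, plus strand): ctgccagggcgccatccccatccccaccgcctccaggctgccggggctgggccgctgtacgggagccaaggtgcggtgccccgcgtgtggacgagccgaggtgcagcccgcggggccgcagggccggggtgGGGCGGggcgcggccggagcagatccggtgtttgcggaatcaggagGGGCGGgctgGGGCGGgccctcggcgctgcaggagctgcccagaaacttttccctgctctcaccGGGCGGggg
ITGB5 (chr3:124901419-124901668, minus strand): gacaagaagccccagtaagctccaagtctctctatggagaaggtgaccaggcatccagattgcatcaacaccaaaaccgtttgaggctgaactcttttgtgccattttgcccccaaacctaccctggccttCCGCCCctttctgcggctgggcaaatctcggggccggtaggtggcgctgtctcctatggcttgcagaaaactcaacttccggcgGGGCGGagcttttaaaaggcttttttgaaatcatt
LAMC1 (chr1:183023170-183023419, plus strand): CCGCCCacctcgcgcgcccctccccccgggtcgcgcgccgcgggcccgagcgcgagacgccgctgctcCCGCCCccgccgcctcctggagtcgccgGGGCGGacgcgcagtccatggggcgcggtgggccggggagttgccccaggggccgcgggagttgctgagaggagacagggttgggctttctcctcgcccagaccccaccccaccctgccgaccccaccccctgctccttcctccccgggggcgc

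The windows of ITGA2 and LAMC1 were rich in GC (76.4% and 79.6%) and held 26 and 32 CG dinucleotides, against a median of 58.0% GC and 11 CG dinucleotides over all 35116 promoters. ITGA1 had 62.0% GC with 16 CG dinucleotides, and ITGB5 had 52.8% GC with 9. GC boxes numbered 4 in ITGA2, 3 in LAMC1, 2 in ITGB5 and 0 in ITGA1. Of the 26 members with an entry, 13 held a GC box, compared with 42.6% of all promoters. Each member counted with 1 window, the first listed, whereas the shares over all promoters counted every entry. CCAAT stood in 4 of the 26 (32.0% of all promoters), TATAAA in 1 (10.7%) and the AP-1 letters TGANTCA in 1 (6.6%), each searched on both strands.

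The collagen-binding alpha subunits showed the widest shift. ITGA2, the α2 subunit of a receptor for fibrillar collagen, lies on chr5:52285170-52390609 (plus strand, GRCh37). Its normalized read count was 44.3 in parental cells, 3478 in untreated clone 3, 3609 in treated clone 3, 882 in untreated clone 4 and 954 in treated clone 4. Every EIR library was far above the parental one, and the clones did not overlap. In bulk RNA, more cells that express a gene and more RNA per cell cannot be told apart. The EIR mean was 2231 ± 1517 (SD, n = 4), and the log2 fold change was 5.65 (SE 1.16, adjusted p = 2.143e-05 by DESeq2 and 0.0373 by edgeR).

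ITGA1, the α1 subunit of a receptor that prefers the collagen of basement membranes, lies 30.1 kb upstream on the same strand (chr5:52083750-52255039). It had 117 normalized read counts in parental cells, 1341 and 1286 in untreated and treated clone 3, and 836 and 1042 in untreated and treated clone 4. All EIR libraries exceeded parental cells by 7.16 to 11.5 times. The log2 fold change was 3.27 (SE 0.35, adjusted p = 3.032e-18 by DESeq2 and 0.0043 by edgeR). PELO, a ribosome rescue factor, starts at the same position on the same strand as ITGA1, and the share of reads that RSEM divided between them is uncertain. ITGA10 and ITGA11, the other collagen-binding alpha subunits, had at most 12 and 3 counts. The 4 collagen-binding genes together made up 0.303% of all length-scaled alpha subunit counts in parental cells, 8.71% and 8.15% in clone 3, and 3.62% and 4.19% in clone 4.

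ITGA1 and ITGA2 are direct neighbours, so the expressed protein-coding genes within 1 Mb of either end of the pair were read beside them. Their 4 neighbours had log2 fold changes of 0.06 to 0.82. PELO (0.54, DESeq2 adjusted p = 0.0039) and MOCS2, a molybdenum cofactor gene (0.82, adjusted p = 1.250e-05), rose, and NDUFS4 (0.06) and ARL15 (0.23) did not pass the test.

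**Figure D2:**
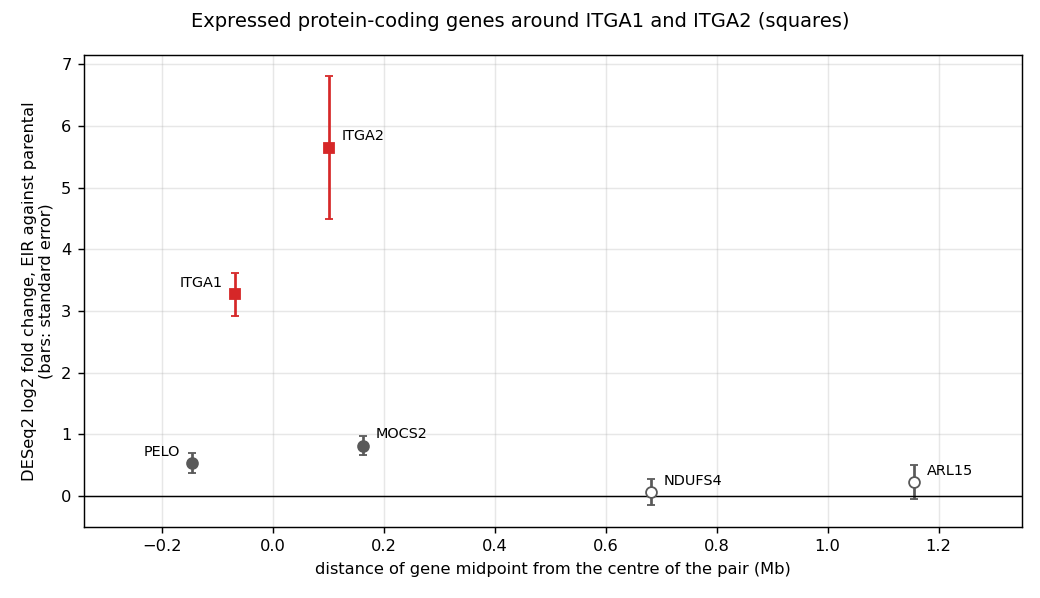
DESeq2 log2 fold change of EIR against parental cells (vertical axis, bars show the standard error) for ITGA1 and ITGA2 (red squares) and the expressed protein-coding genes within 1 Mb (circles, filled where adjusted p was under 0.05), by distance in Mb from the centre of the pair. ITGA1 (3.27) and ITGA2 (5.65) stand above neighbours at 0.06 to 0.82.

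The laminin-binding alpha subunits did not pass the test against parental cells. ITGA3, the α3 subunit, had 8181 normalized read counts in parental cells, 9916 and 10973 in clone 3 and 10003 and 11981 in clone 4 (untreated first, here and below). All EIR values lay above parental cells, but the log2 fold change was only 0.39 (SE 0.19, adjusted p = 0.1145 by DESeq2). With the correction for GC content it was 0.78 and passed (adjusted p = 6.804e-04). ITGA6, the α6 subunit, had 4543 in parental cells, 3034 and 4106 in clone 3 and 1818 and 2983 in clone 4, a log2 fold change of -0.61 (SE 0.42, adjusted p = 0.3076). ITGA7, the third laminin-binding alpha subunit, had 17 to 48 counts.

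Among the other alpha subunits, ITGA5, which forms the fibronectin receptor with β1, fell from 1174 normalized read counts to 542 and 673 in clone 3 and 634 and 828 in clone 4. All EIR libraries were below parental cells, with a log2 fold change of -0.81 (SE 0.29, adjusted p = 0.0270 by DESeq2). This call was made in only 4 of 11 settings and was lost with edgeR (adjusted p = 0.0831) and after the GC correction (log2 fold change -0.50, adjusted p = 0.2728). ITGAV, the αv subunit, had 19597 in parental cells, 22383 and 23270 in clone 3 and 17778 and 12681 in clone 4, so that the clones lay on either side of parental cells (log2 fold change -0.04, SE 0.36). ITGAE, which with β7 binds E-cadherin, kept to between 327 and 367 normalized read counts in all 5 libraries. HASPIN lies within ITGAE on the opposite strand, and whether the counting used strand is not stated.

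Of the beta subunits, the most abundant one fell. ITGB1 (chr10:33176201-33294720, minus strand, GRCh37) had 102653 normalized read counts in parental cells, 54759 and 58703 in clone 3 and 74780 and 54664 in clone 4. Every EIR library was below parental cells, with a log2 fold change of -0.76 (SE 0.25, adjusted p = 0.0128 by DESeq2). The call was lost with edgeR (adjusted p = 0.1447). It was also lost when the treated library of clone 3 was left out. ITGB1 still made up 83.9% to 92.5% of all length-scaled beta subunit counts in EIR libraries and 92.9% in parental cells.

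The beta partners of αv other than β1 moved apart. ITGB3, the β3 subunit of a vitronectin receptor (chr17:45331193-45391109, plus strand), fell from 5125 normalized read counts to 2016 and 2121 in clone 3 and 2276 and 2932 in clone 4. Its log2 fold change was -1.13 (SE 0.27, adjusted p = 3.516e-04 by DESeq2 and 0.0232 by edgeR). A same-strand gene without a symbol overlaps it and had 58 counts or fewer. ITGB5, the β5 subunit of another vitronectin receptor (chr3:124480795-124620265, minus strand), fell from 2647 to 966 and 1095 in clone 3 and 1308 and 1350 in clone 4. The log2 fold change was -1.17 (SE 0.26, adjusted p = 1.381e-04 by DESeq2 and 0.0189 by edgeR). For both genes all EIR libraries lay below parental cells.

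ITGB8 and ITGB6, whose products pair with αv and activate latent TGF-beta, had higher values in every EIR library but did not pass the test with all 4 EIR libraries. ITGB8 had 5303 normalized read counts in parental cells, 18676 and 19274 in clone 3 and 7927 and 7559 in clone 4 (log2 fold change 1.33, SE 0.58, adjusted p = 0.0717 by DESeq2). ITGB6 had 112 in parental cells, 528 and 713 in clone 3 and 178 and 164 in clone 4 (log2 fold change 1.82, SE 0.82, adjusted p = 0.0888). Both passed in DESeq2 when either library of clone 4 was left out, ITGB8 with an adjusted p of 0.0221 without the untreated and 0.0110 without the treated library, and ITGB6 with 0.0301 and 0.0241. Neither gene passed in DESeq2 without the untreated or without the treated library of clone 3. There the log2 fold changes were 1.13 and 1.10 for ITGB8 and 1.65 and 1.37 for ITGB6. Both also missed the threshold in edgeR (adjusted p = 0.2793 for ITGB8 and 0.3239 for ITGB6). The same held after the GC correction (0.2888 and 0.1571 by DESeq2). Within the 4 beta partners of αv, the share of ITGB8 was 28.5% in parental cells, 75.6% and 73.9% in clone 3 and 55.2% and 50.3% in clone 4, on length-scaled counts. The share of ITGB3 was 41.6% in parental cells, 12.3% in both clone 3 libraries, and 23.9% and 29.5% in clone 4. These shares have 1 parental library behind them and were not tested.

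**Figure D3:**
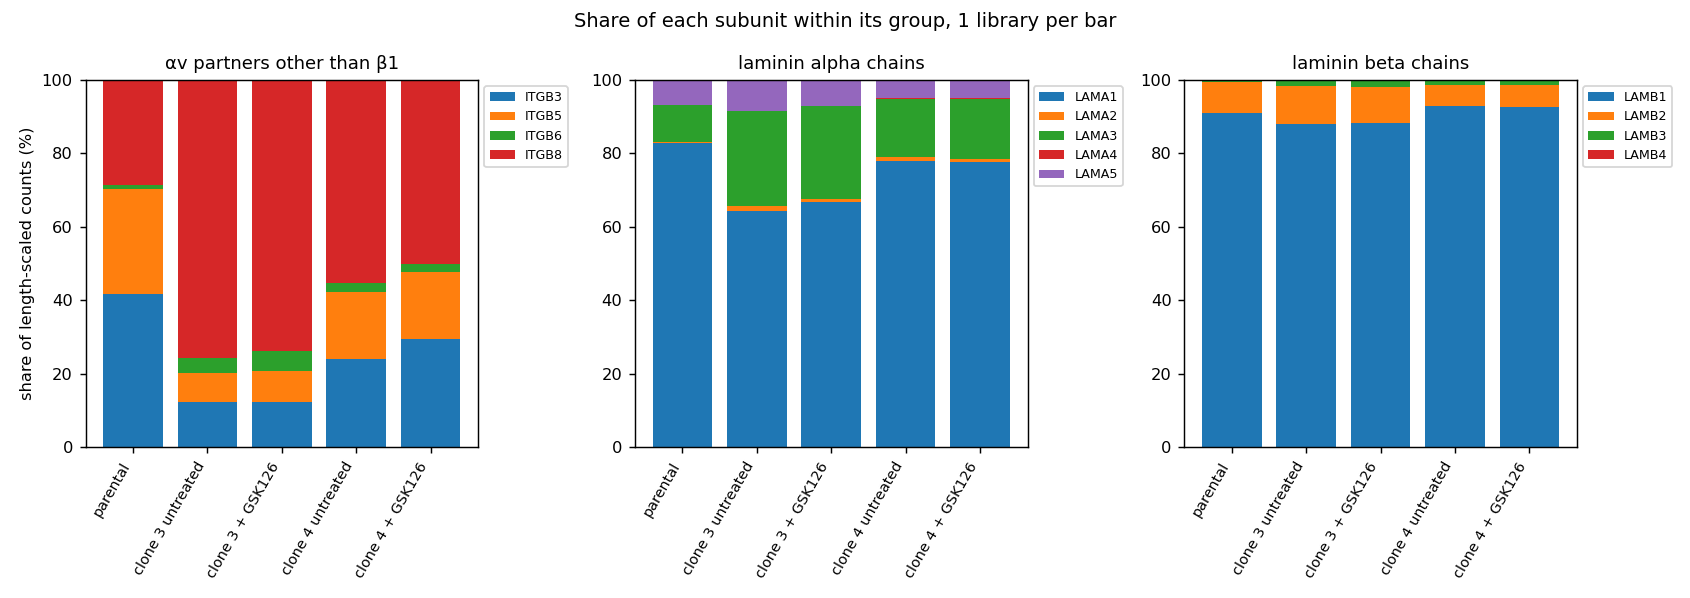
Share (%) of each subunit in the length-scaled counts of its group, 1 bar per library, for the beta partners of αv other than β1, the laminin alpha chains and the laminin beta chains. The share of ITGB8 is 28.5% in the parental bar and between 50.3% and 75.6% in the EIR bars, and that of LAMA3 is 9.85% in the parental bar and between 16% and 25.8% in the EIR bars.

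ITGB2, the beta subunit of leukocyte integrins, rose from a low level, with 15.1 normalized read counts in parental cells, 78.7 and 122 in clone 3 and 40.7 and 48.7 in clone 4. The log2 fold change was 2.26 (SE 0.82, adjusted p = 0.0269 by DESeq2). ITGB2 did not pass in edgeR on all libraries (adjusted p = 0.1572). In DESeq2 the call was lost when either library of clone 3 was left out, and with the libraries of each clone summed. The antisense gene ITGB2-AS1 lies over it and had 6, 65, 80, 21 and 32 counts in the same order of libraries, so reads of the 2 genes cannot be told apart if strand was not used. The summed leukocyte markers stood at 47.3 in the parental library and ranged from 37.6 to 49.7 among EIR libraries, and PTPRC, the pan-leukocyte gene, had 2 to 15 counts. Single markers in that sum moved in opposite directions: CD14 had 27, 0, 1, 2 and 7 counts and LYZ had 7, 21, 16, 19 and 21, in the same order of libraries. ITGAM, the αM partner of β2, had 8.06 in parental cells, 93.5 and 97.8 in clone 3 and 3.05 and 9.52 in clone 4. ITGAL, ITGAX, ITGAD and ITGB7 had at most 15 counts. ITGB4, the β4 subunit of hemidesmosomes, had 89.6 in parental cells, 147 and 179.9 in clone 3 and 10.2 and 9.52 in clone 4, on either side of parental cells.

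**Figure D4:**
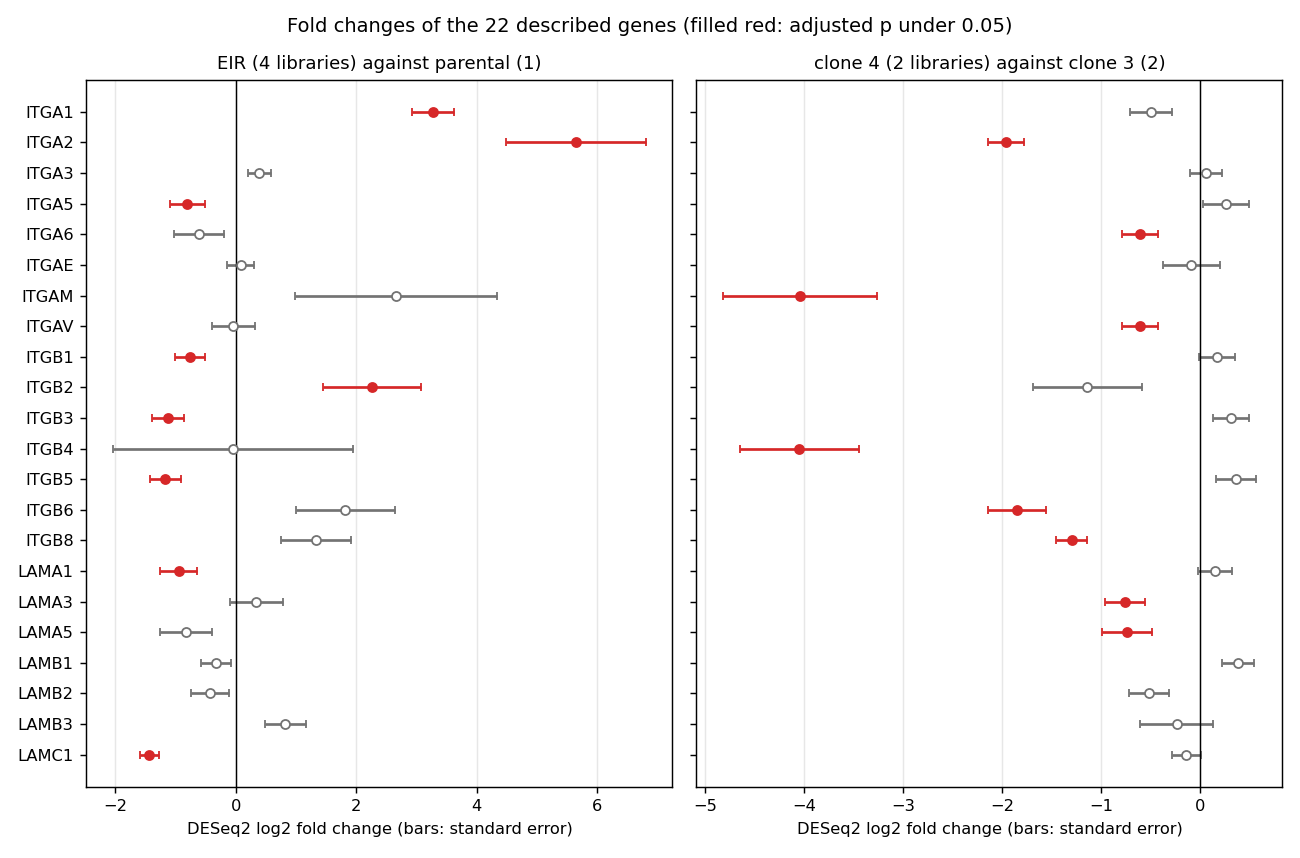
DESeq2 log2 fold change with its standard error for the 22 described genes, in EIR against parental cells (left) and in clone 4 against clone 3 (right), with filled red points for an adjusted p under 0.05. In the left panel 3 genes are called higher and 6 lower, and in the right panel all 9 called genes are lower in clone 4.

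Among the laminin chains, LAMC1, the γ1 chain found in most laminins (chr1:182992555-183114727, plus strand, GRCh37), had 106908 normalized read counts in parental cells, 42026 and 40650 in clone 3 and 39455 and 35926 in clone 4. The EIR values were close to one another (39514 ± 2612, SD, n = 4) and all below parental cells, with a log2 fold change of -1.44 (SE 0.16, adjusted p = 2.845e-16 by DESeq2 and 0.0124 by edgeR).

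LAMA1, the alpha chain of the embryonic type of laminin, fell from 12096 normalized read counts to 5218 and 6492 in clone 3 and 5170 and 8109 in clone 4. All EIR libraries were below parental cells, with a log2 fold change of -0.95 (SE 0.31, adjusted p = 0.0131 by DESeq2). The call was lost with edgeR (adjusted p = 0.0711), with total count scaling and after the GC correction (adjusted p = 0.0521). LAMA3, an alpha chain of epithelial laminins, had 1588 in parental cells, 2305 and 2703 in clone 3 and 1172 and 1881 in clone 4, and overlapped the parental value (log2 fold change 0.34, SE 0.44). LAMA5, the alpha chain of the widespread epithelial basement membrane laminins, had 1174 in parental cells, 807 and 833 in clone 3 and 402 and 606 in clone 4 (log2 fold change -0.83, SE 0.43, adjusted p = 0.1552). The share of LAMA3 in the laminin alpha chains was 9.85% in parental cells and 25.8%, 25.1%, 16% and 16.3% in the EIR libraries.

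No laminin beta chain passed the test. LAMB1, the most abundant beta chain, had 19686 normalized read counts in parental cells, 13488 and 13736 in clone 3 and 17708 and 17823 in clone 4 (log2 fold change -0.33, SE 0.25). LAMB2 had 1806 in parental cells, 1604 and 1550 in clone 3 and 1089 and 1119 in clone 4 (-0.43, SE 0.31). LAMB3, a beta chain of epithelial laminins, had 101 in parental cells, 175 and 211 in clone 3 and 161 and 166 in clone 4. Its log2 fold change of 0.82 (SE 0.34, adjusted p = 0.0545 by DESeq2) missed the threshold but passed after the GC correction (1.22, adjusted p = 0.0014), with total count scaling (0.90, adjusted p = 0.0360) and with the filter on low counts (0.84, adjusted p = 0.0419). LAMB3 did not pass in edgeR (adjusted p = 0.2565) or with TMM factors in DESeq2 (adjusted p = 0.0576). It also did not pass with the libraries of each clone summed or with any EIR library left out. LAMB1 is overlapped on the opposite strand by DLD and LAMA5 by ADRM1, both expressed.

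**Figure D5:**
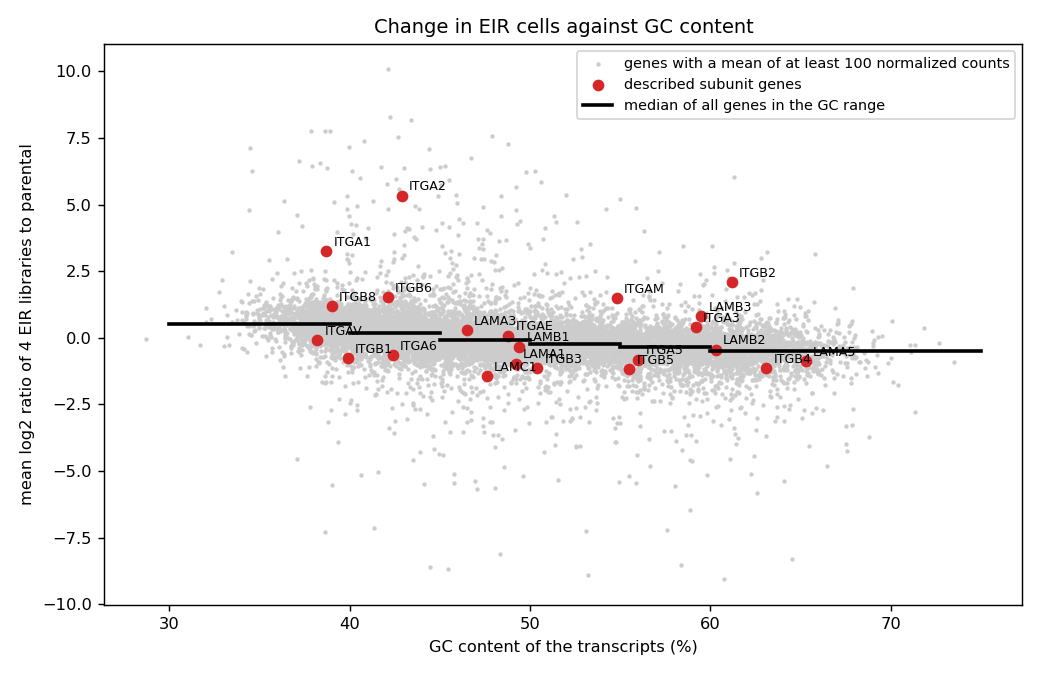
Mean log2 ratio of the 4 EIR libraries to parental cells against the GC content (%) of the transcripts, for expressed genes (grey, mean normalized read count of 100 or more) and the described subunit genes (red), with black lines for the median of each GC range. The median falls from 0.51 below 40% GC to -0.49 at 60% GC or more, and ITGA1 and ITGA2 lie above and LAMC1 lies below the medians of their ranges.

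The second comparison set clone 4 against clone 3 with treatment as a covariate, with no use of the parental library. With DESeq2, 29 members received an adjusted p and 9 passed (31%), against 9.83% of all 17695 genes tested. All 9 were lower in clone 4, where 6.52% of all genes were called lower, and 0 were higher, where 3.31% of all genes were. Some settings called members higher in clone 4 as well: 3 higher and 7 lower without the untreated library of clone 4, 2 and 11 without its treated library or without the treatment covariate, and 1 and 8 with the GC correction. The median log2 fold change was -0.24 over the 29 genes and 0.00 over all genes tested. In edgeR, which called 6.44% of all genes, the calls of ITGA6, ITGAV and LAMA5 were lost and LAMB4, a laminin beta chain with 13 to 58 counts, was called higher (adjusted p = 0.0271). ITGA2, ITGAM, ITGB4, ITGB6 and ITGB8 passed in all 11 settings.

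The widest gaps between clones were in subunits of low level. ITGB4 was 16.6 times lower in clone 4 (log2 fold change -4.05, SE 0.60, adjusted p = 6.207e-10 by DESeq2). ITGAM was 15.2 times lower (-4.04, SE 0.78, adjusted p = 8.259e-06). GALK1, on the opposite strand at the ITGB4 locus, was counted 307 and 304 times in clone 3 but 118 and 164 times in clone 4. EPCAM, MUC1 and NAPSA, as given above, were also lower in clone 4 than in clone 3. Raw counts of KRT7 and KRT8 were lower there too, whereas KRT18, the most abundant marker of that list, was higher. PAX8 had raw counts of 4446 and 3880 in clone 3 and 3031 and 3634 in clone 4. These are not adjusted for library size, and the size factor was 0.945 for treated clone 4 against 1.012 for treated clone 3. A lower PAX8 level is therefore not shown for the treated library. The summed normalized read count of the list in both clone 4 libraries lay inside the range of clone 3. Whether these markers had a part in the differences of ITGB4 and ITGAM was not tested.

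Among well-expressed subunits, ITGA2 was 3.86 times lower in clone 4 (-1.96, SE 0.18, adjusted p = 6.363e-25 by DESeq2). ITGB6 was 3.63 times lower (-1.85, SE 0.29, adjusted p = 9.143e-09) and ITGB8 was 2.45 times lower (-1.30, SE 0.16, adjusted p = 1.758e-14). For these 3 genes, as for all 9 called genes, both libraries of clone 4 lay below both libraries of clone 3. The 9 genes were picked by a test on these same libraries, so this separation is no separate support. The share of all genes with such a separation was not computed. LAMA3 (-0.76, SE 0.20, adjusted p = 0.0024), LAMA5 (-0.74, SE 0.25, adjusted p = 0.0335), ITGA6 (-0.61, SE 0.18, adjusted p = 0.0109) and ITGAV (-0.61, SE 0.18, adjusted p = 0.0092) differed less. All 4 lost the call without either library of clone 3, and LAMA3, LAMA5 and ITGA6 also without the untreated library of clone 4. ITGA1 (-0.50, adjusted p = 0.1389) and LAMC1 (-0.14, adjusted p = 0.7741) did not pass between the clones. Without the treatment covariate, ITGA1 (-0.49, adjusted p = 0.0414), LAMB1 (0.38, adjusted p = 0.0224) and LAMB2 (-0.52, adjusted p = 0.0097) passed in DESeq2. With a library of clone 4 left out, calls also appeared for ITGA1 (-0.66 without the treated library), ITGB1, ITGB3, LAMA1, LAMB1 and LAMB2. The GC correction ended the call of LAMA5 (-0.62, adjusted p = 0.0724) and called LAMB1 higher in clone 4 (0.40, adjusted p = 0.0273, against 0.1200 before).

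The third comparison asked whether GSK126 changed these genes in EIR cells. With DESeq2, 0 of 37 members passed, and of all 29847 genes 1 did (0.00335%). In edgeR 0 members passed. Before adjustment, 1 member fell under the threshold of 0.05 in DESeq2, namely LAMA1 (log2 fold change 0.48, SE 0.22, adjusted p = 0.9999 by DESeq2). LAMA1 was higher in the treated library in both clones, by 0.32 in clone 3 and 0.65 in clone 4 on the log2 scale. ITGA6 (0.44 and 0.71) and ITGA5 (0.31 and 0.39) also had higher values in both treated libraries. So did other members, among them LAMA3 (0.23 and 0.68), ITGA3 (0.15 and 0.26) and ITGB2 (0.62 and 0.26). LAMC1 (-0.05 and -0.14) was lower in both, and ITGAV (0.06 and -0.49) and ITGB1 (0.10 and -0.45) differed in direction between the clones. None of these passed, and the share of all genes that were higher in both treated libraries was not computed. The median log2 fold change was 0.14 over the members, those with hardly any counts included, and 0.03 over all genes. Over the 19 members with a mean of at least 100 normalized read counts it was 0.09, against -0.02 over all such genes. A p that misses the threshold with 2 clones does not show that GSK126 left these genes alike.

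Genes that work with integrins and laminins were read in the same EIR against parental fit, as 4 lists chosen with earlier results of these data known. Of 33 tested integrin activators and adhesion adaptors, 7 rose and 6 fell (median log2 fold change -0.03), where 12.4% of all genes were called higher and 13.2% lower. In edgeR, which called 5.73% of all genes, the genes called numbered 7 adaptors, 3 basement membrane partners, 4 laminin receptors and 7 other ligands. The rise was widest for DAB2, an endocytic adaptor of integrins (129 normalized read counts in parental cells, 642 to 799 in EIR libraries, log2 fold change 2.45, DESeq2 adjusted p = 6.497e-20), and the fall for the kinase gene SRC (788 against 220.4 to 251, -1.73, adjusted p = 9.691e-13). LIMS1, TLN2 and KRIT1 rose by 0.78 to 0.99 and NEDD9, CIB1 and VCL fell by 0.93 to 1.47 on the log2 scale. KRIT1 did not pass after the GC correction (adjusted p = 0.1128).

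Of 11 tested basement membrane partners of laminin, 1 rose and 3 fell (median -0.48). NTN4, a netrin that binds laminin gamma chains, rose (log2 fold change 1.02, DESeq2 adjusted p = 5.448e-04). The type IV collagen chains COL4A2 (-1.61, adjusted p = 0.0149) and COL4A5 (-0.63, adjusted p = 5.741e-05) and the proteoglycan AGRN (-0.82, adjusted p = 7.124e-04) fell, COL4A2 and AGRN no longer passing after the GC correction.

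Of 15 laminin receptors and hemidesmosome genes other than integrins, 3 rose and 5 fell (median -0.13). COL17A1, the collagen of hemidesmosomes, fell from 3263 normalized read counts to 212 and 261 in clone 3 and 136 and 221 in clone 4 (log2 fold change -3.97, SE 0.37, adjusted p = 2.605e-24 by DESeq2). The syndecans SDC3 (-1.98) and SDC1 (-1.97) and the laminin receptor BCAM (-1.64) also fell. DMD (3.99) and UTRN (1.27), which link the dystroglycan receptor to actin, and DST (1.26), the hemidesmosome plakin, rose, and DST no longer passed after the GC correction (adjusted p = 0.1018 by DESeq2). None of these 3 rises passed in edgeR, where DMD had an adjusted p of 0.0512.

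Of 26 tested other integrin ligands, 6 rose and 3 fell (median 1.03). THBS1, thrombospondin, had 1440 normalized read counts in parental cells, 35716 and 38935 in clone 3 and 14174 and 18893 in clone 4 (log2 fold change 4.22, SE 0.55, adjusted p = 1.670e-12 by DESeq2). FN1, fibronectin, rose from 10.1 to between 83.3 and 164 (3.63, adjusted p = 2.291e-06), and the matricellular genes CCN2 (2.46) and CCN1 (1.98) rose as well. ICAM5 (-3.24) and NPNT, the α8 integrin ligand nephronectin (-0.70), fell. Of the named genes in these 4 lists, TLN2 (adjusted p = 0.0503), COL4A2 (0.0904) and NPNT (0.0553) also did not pass in edgeR. Between the clones, where 3.31% of all genes were called higher and 6.52% lower in clone 4, 0 of 33 tested adaptors were higher and 2 lower. Of 12 tested basement membrane partners 0 were higher and 5 lower, of 15 laminin receptors 3 were higher and 2 lower, and of 29 other ligands 2 were higher and 8 lower.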

How the data were processed

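Total RNA of TOV21G cells had been sequenced from stranded libraries. The authors aligned the reads to hg19 with bowtie2 and ran RSEM, and the deposited values are its expected counts per gene (each an estimated count), not normalized, all whole numbers (0 were not whole) for 30476 genes. They had thus been rounded, and reads shared by overlapping genes were divided by estimation. Each of 5 columns was matched to its library by name (0 columns were left unused), and the column that names no clone was assigned to parental cells. Of the genes, 29203 (95.8%) matched GENCODE release 44 on GRCh37, which gave symbols, GC content, length and coordinates. Total counts ranged from 25479238 to 30764963. Intervals for single libraries were not computed, because reads are not independent molecules.

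The Wald test of DESeq2 1.42.0 (R 4.3.3), two-sided and with size factors by the median of ratios, compared EIR with parental cells, clone 4 with clone 3 (treatment as covariate) and treated with untreated EIR cells. Genes passed at a p under 0.05 after Benjamini-Hochberg adjustment over all genes tested (the study also used DESeq2 at a 5% false discovery rate). An adjusted p that DESeq2 left out for low counts stayed out. With 1 parental library the spread came from the EIR libraries only. The clone number paired treated and untreated libraries, which come from the same clone, and deviations of same-clone libraries from their group means correlated at 0.862 over 11564 genes. The main DESeq2 and edgeR fits were also run on counts simulated with the means and fitted spread of these data, and the outcome is not given here. Log2 ratios of single libraries used a pseudocount of 0.5.

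Alternatives were edgeR 4.0.16 (quasi-likelihood, TMM), TMM or total count scaling in DESeq2, a filter of 10 counts in 2 or more libraries, an absolute log2 fold change of 1 or more, a GC correction (normalization factors per gene and library from a smooth curve of log2 ratio on GC content), each library left out, summed libraries per clone, no treatment covariate, and the replicate block. Genes are named if their mean was at least 100 normalized counts or a test called them, and, from each other list, up to 4 called genes with the largest rise and up to 4 with the largest fall. Earlier results of these data were known when the members, taken by gene identity, and the lists were set. Promoter sequences came from RefSeq (GRCh38.p14), where 26 of the 37 members reported had an entry. Results for 1 member gene are not reported here. Figures were drawn with matplotlib 3.10.9.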

Additional observations from a re-analysis of the deposited data

Results flagged for a closer look

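For 9 subunit genes the change from the same parental library differed between the EIR clones, as tested directly by clone 4 against clone 3 (DESeq2). The log2 difference, clone 4 minus clone 3, was -4.05 for ITGB4, -4.04 for ITGAM, -1.96 for ITGA2, -1.85 for ITGB6, -1.30 for ITGB8, -0.76 for LAMA3, -0.74 for LAMA5, -0.61 for ITGA6 and -0.61 for ITGAV. ITGB4 and ITGAM lay above parental cells in both clone 3 libraries, whereas ITGB4 lay below parental cells in both clone 4 libraries and ITGAM lay below in 1 and above in 1. ITGA2, ITGB6 and ITGB8 lay above parental cells in both clones, so these differed in size and not in direction. No gene was flagged for a library far from the others of its group. The EIR libraries are few and fall in pairs by clone, so such a rule can hardly flag a single library. The absence of flags therefore shows little.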

How the results depend on the processing

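Against parental cells, 9 members were called in DESeq2, 5 in edgeR, 6 to 11 when each EIR library was left out and 6 to 10 in the other settings. Over all genes, 4157 calls became 1746 in edgeR and 1914 with the libraries of each clone summed. GC correction moved the split of called members from 3 higher and 6 lower to 5 higher and 4 lower, and total count scaling to 4 higher and 4 lower. Between the clones, 9 called members became 5 with an absolute log2 fold change of at least 1, and 5 to 13 with libraries left out (5 without either library of clone 3). Over all genes, 1739 calls between the clones became 1096 with that minimum fold change and 831 to 2800 with libraries left out. For GSK126, 0 members were called in any setting, the replicate block included (0 members). Over all genes, 1 call became 4 with the replicate block, 7 with the replicate block and GC correction, and up to 25 with a library left out. The block changed no call among the members.

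Log2 fold changes that changed sign were all of genes that had not passed. Against parental cells these were ITGAV (0.02 with total count scaling, -0.16 to 0.12 with libraries left out) and ITGB4 (0.02 with total count scaling, 0.38 with GC correction, -0.69 to 0.34 with libraries left out). Between the clones, values with libraries left out ran from -0.07 to 0.19 for ITGA3, -0.07 to 0.39 for ITGB1 and -0.19 to 0.46 for LAMA1. For GSK126, 36 of 264 recomputed values changed sign, most of them when leaving out a library left the clones unbalanced between the treatments. With libraries left out the values ran from -0.23 to 0.48 for ITGA1, -1.22 to 1.37 for ITGA2, -0.11 to 0.07 for ITGAE, -2.38 to 4.14 for ITGAM, -0.69 to 0.20 for ITGAV and -0.40 to 0.03 for ITGB1. They ran from -0.33 to 1.07 for ITGB2, -0.02 to 0.42 for ITGB3, -3.08 to 3.23 for ITGB4, -0.10 to 0.32 for ITGB5, -1.14 to 1.30 for ITGB6 and -0.85 to 0.76 for ITGB8. Among laminins they ran from -0.03 to 0.97 for LAMA3, -0.19 to 0.84 for LAMA5, -0.19 to 0.21 for LAMB1, -0.30 to 0.29 for LAMB2 and -0.04 to 0.32 for LAMB3. With total count scaling ITGAE was at 0.06, ITGB8 at 0.04 and LAMB2 at 0.04. GC correction put ITGAE at 0.01, the filter on low counts put ITGB8 at 0.00, and the replicate block with GC correction put ITGAE at 0.01 and ITGB8 at 0.02. The cause of these changes was not tested.

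Where an EIR clone is left with 1 library, that library is assumed to vary like the others. Depth limits the 15 genes of low count, of which 9 received no adjusted p against parental cells. The single parental library limits all differences from parental cells.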
